A study of Mus musculus with 8 samples.

Results

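Enteroendocrine hormone and granin genes were examined in RNA sequencing of intestinal crypt organoids. The set was a list of 10 genes, listed by name as classical products of hormone-secreting gut cells, namely the granins Chga and Chgb, the tachykinin gene Tac1, the serotonin enzyme gene Tph1, and the peptide hormone genes Gip, Cck, Gcg, Sct, Ghrl and Sst. Of these, 9 had values and were tested, out of 14248 genes with a value and 11027 genes tested. Sst (somatostatin, chromosome 16, 23889573 to 23890958, minus strand, GRCm38) was not analysed here.

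The samples were 4 organoid cultures from WT littermates (WT) and 4 from MG53-TG mice, which overexpress MG53, a tripartite motif protein encoded by Trim72 and known for membrane repair in muscle. Organoids are epithelial cultures, here grown in Matrigel from isolated crypts in the same IntestiCult medium for both genotypes, and no other allele or agent was given for either group in the labels. The promoter of the transgene, the age and the sex of the animals were not given in the sources used here, and the text on the crypt organoids of the study also names a line carrying an Lgr5 allele. The labels did not state whether the 4 samples of a group came from separate animals, so p-values measure the spread between these samples, which may be technical.

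Enteroendocrine cells are scattered secretory cells of the gut epithelium that arise from crypt stem cells and release peptides and amines on contact with nutrients. Their products are stored in dense-core granules, into which the acidic proteins called granins pack the hormones. Subtypes are named by their leading product. Enterochromaffin cells make serotonin and often tachykinins, K cells make Gip, I cells make Cck, L cells make the glucagon-like peptides of Gcg, S cells make secretin, X cells make ghrelin and D cells make somatostatin.

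The values were FPKM, that is, fragments mapped to a transcript, scaled to its length and to all mapped fragments of the sample. They were deposited per transcript event (a transcription start, a transcription end or an alternative exon) and sample. The FPKM of a gene was the sum over its start events, or over its end events where that mean was higher. The sequencing depth is unknown, since the files hold no read counts. Summed over all start events, the FPKM ranged from 269837 to 273797 in WT and from 269094 to 284330 in MG53-TG. Trim72 was listed in 0 of the 4 WT samples, and MG53-TG samples 1 to 4 had 16.4, 27.4, 31.9 and 36.5 FPKM, in keeping with the labels. Across genes, the MG53-TG samples fell in pairs. Pearson's r of the log2 values was 0.971 between samples 1 and 2 and 0.969 between samples 3 and 4, against 0.934 to 0.951 across the pairs. The counts past the adjusted threshold for the hormone and granin genes and the pathway lists were therefore also computed without either pair. Those of the marker lists were not. In WT, all 6 pairs of samples had r between 0.968 and 0.970.

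For a view of the regulatory sequence, the 250 bases upstream of the RefSeq start (GRCm38.p6) are shown for 4 genes whose strongest start event lay within 50 bases of that start, 3 that rose in MG53-TG organoids (Chga, Gip and Tph1) and 1 that did not pass the test (Gcg). Capitals mark E-boxes (CANNTG, the element bound by basic helix-loop-helix factors such as Neurog3 and Neurod1) and TATA boxes (TATAAA, or TTTATA on the other strand). Both motifs, and the cyclic AMP response element TGACGTCA, were searched on both strands. Each sequence reads 5′ to 3′ on the strand of the gene.
Chga, chr12:102554691-102554940, plus strand: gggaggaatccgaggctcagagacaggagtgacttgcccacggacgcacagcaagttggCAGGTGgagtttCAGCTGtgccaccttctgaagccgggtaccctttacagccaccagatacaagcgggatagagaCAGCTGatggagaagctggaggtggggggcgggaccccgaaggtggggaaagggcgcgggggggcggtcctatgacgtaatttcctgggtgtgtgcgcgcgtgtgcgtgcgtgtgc
Gip, chr11:96024295-96024544, plus strand: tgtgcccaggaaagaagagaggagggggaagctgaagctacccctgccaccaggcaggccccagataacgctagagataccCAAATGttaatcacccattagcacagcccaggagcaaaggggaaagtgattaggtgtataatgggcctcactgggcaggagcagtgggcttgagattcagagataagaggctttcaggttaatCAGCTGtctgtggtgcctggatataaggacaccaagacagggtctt
Tph1, chr7:46667378-46667627, minus strand: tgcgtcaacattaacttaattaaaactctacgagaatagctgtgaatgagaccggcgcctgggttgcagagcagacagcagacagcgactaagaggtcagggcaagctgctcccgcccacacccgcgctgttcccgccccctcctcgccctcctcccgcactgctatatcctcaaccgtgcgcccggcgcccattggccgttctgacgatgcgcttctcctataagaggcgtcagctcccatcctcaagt
Gcg, chr2:62483654-62483903, minus strand: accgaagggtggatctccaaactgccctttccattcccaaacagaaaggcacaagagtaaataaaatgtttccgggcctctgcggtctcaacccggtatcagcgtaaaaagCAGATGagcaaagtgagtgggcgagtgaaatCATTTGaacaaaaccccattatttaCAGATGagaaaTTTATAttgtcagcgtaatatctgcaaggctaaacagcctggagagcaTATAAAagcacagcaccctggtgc

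The Chga window held 3 E-boxes, beginning 191, 179 and 116 bases before the start. The Gip window held 2, at 169 and 46 bases, and the Tph1 window held none of the searched motifs. The Gcg window held 3 E-boxes, at 139, 108 and 83 bases, and TATA boxes at 72 and 24 bases. Of 32851 RefSeq promoters of this length, 66.2% held an E-box, 12.4% a TATA box and 1.55% a cyclic AMP response element. The strongest start event lay 28 bases downstream of the RefSeq start for Chga, 3 bases downstream for Gcg and at the start for Gip and Tph1. For Chgb and Tac1 it lay 364 and 182 bases upstream of the nearest RefSeq start and for Cck 55 bases downstream, past the limit of 50 bases, so no window is shown for them. The window before the RefSeq start of Cck held 3 E-boxes and neither of the other motifs, that of Tac1 held 2 E-boxes, and that of Chgb held 1 E-box and 1 cyclic AMP response element. Sct and Ghrl also had a RefSeq start within 50 bases of their strongest start event and are not printed. The Sct window held 3 E-boxes and 1 TATA box, and the Ghrl windows near that event held none of the searched motifs.

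The granins, the tachykinin gene and the serotonin enzyme gene were higher in MG53-TG organoids, Gip was higher by less, and Cck, Gcg, Sct and Ghrl did not pass the test. With limma on log2(FPKM + 1) and a threshold of 0.05 on p-values adjusted by Benjamini-Hochberg over all genes tested, 5 of the 9 genes rose (Chga, Chgb, Tac1, Tph1 and Gip) and 0 fell. At an unadjusted p of at most 0.05 in limma the counts were also 5 and 0. Of all genes tested, 44.5% passed the adjusted threshold, 15.7% of all genes tested being higher and 28.8% lower in MG53-TG. The median log2 fold change was 0.50 over the 9 genes and -0.16 over all genes tested. In bulk RNA, a change in the number of cells of a type and a change in RNA per cell cannot be told apart.

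**Figure D1:**
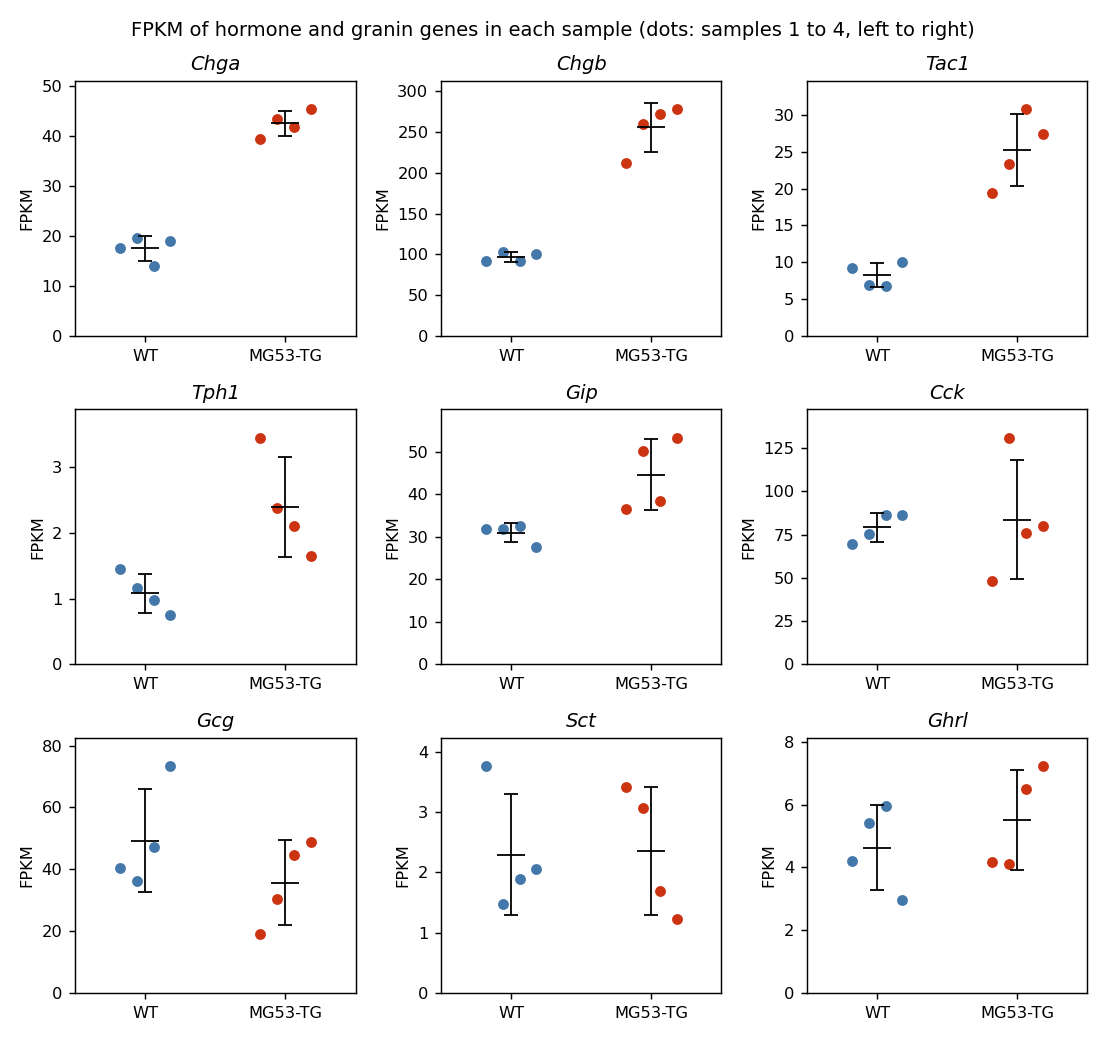
FPKM (y axis, linear and from 0, a scale per gene) of the 9 genes in the 4 WT (blue) and 4 MG53-TG (red) samples, with samples 1 to 4 from left to right and the mean with its SD in black. For Chga, Chgb, Tac1, Tph1 and Gip every MG53-TG dot lies above every WT dot, and for Cck, Gcg, Sct and Ghrl the groups overlap.

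Chromogranin A (Chga) is the granin used most widely as a marker of enteroendocrine cells. Chga (chromosome 12, 102554969 to 102565028, plus strand) was at 17.6, 19.5, 13.9 and 19.0 FPKM in WT samples 1 to 4, against 39.3, 43.4, 41.9 and 45.3 FPKM in the MG53-TG samples. The lowest MG53-TG sample was well above the highest WT sample, and the spread within each group was small. The mean rose from 17.5 ± 2.52 FPKM (SD, n = 4) to 42.5 ± 2.53 FPKM (SD, n = 4), a ratio of means of 2.42. The log2 fold change was 1.24 with a standard error of 0.118 and a 95% interval from 0.97 to 1.51 (limma, adjusted p = 8.46e-05). Of all genes tested, 4.90% had a higher log2 fold change.

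Chromogranin B (Chgb), a larger granin of the same granules, had the highest FPKM of the 9 genes in both groups. Chgb (chromosome 2, 132781278 to 132795079, plus strand) was at 91.6, 103, 92.0 and 101 FPKM in the WT samples and at 213, 260, 273 and 278 FPKM in the MG53-TG samples. MG53-TG sample 1 was the lowest of its group and still more than double every WT sample. The mean rose from 96.9 ± 5.94 FPKM to 256 ± 29.8 FPKM (SD, n = 4 each), with a log2 fold change of 1.39, a standard error of 0.103 and a 95% interval from 1.15 to 1.62 (limma, adjusted p = 2.38e-05). The ratio of means was 2.64, and 4.06% of all genes tested had a higher log2 fold change.

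Tac1 encodes preprotachykinin, the precursor of substance P and neurokinin A, which enterochromaffin cells and enteric neurons both make. Tac1 (chromosome 6, 7554879 to 7565834, plus strand) was at 9.19, 6.94, 6.79 and 10.1 FPKM in the WT samples and at 19.4, 23.4, 30.7 and 27.4 FPKM in the MG53-TG samples. The 2 MG53-TG pairs did not overlap, with samples 3 and 4 above samples 1 and 2. Tac1 had the largest log2 fold change of the 9 genes, 1.50 with a standard error of 0.175 and a 95% interval from 1.1 to 1.9 (limma, adjusted p = 0.000260). The mean rose from 8.26 ± 1.65 FPKM to 25.3 ± 4.91 FPKM (SD, n = 4 each), a ratio of 3.06. Of the markers listed for enteric neurons and for glia, Elavl4, Prph, Chat, Nos1, Tubb3 and Sox10 were listed in 0 of the 8 samples. The summed FPKM of that list of 12 genes was 1.10 to 1.20 in the WT and 5.49 to 11.3 in the MG53-TG samples, of which S100b made 4.60, 4.45, 8.19 and 7.96 FPKM in the latter. S100b passed as higher (log2 fold change 2.53, limma adjusted p = 4.78e-05), with a WT mean of 0.238 FPKM, under the expression filter. Snap25, a synaptic fusion protein that endocrine cells also use, was listed in 0 of the 4 WT samples, while the MG53-TG samples held 0.654, 0.491, 0.779 and 0.128 FPKM, without overlap. Ret, a receptor of enteric neurons, was at 0.668, 0.958, 0.825 and 0.734 FPKM in WT and at 0.327, 0.544, 2.31 and 2.66 FPKM in MG53-TG, above WT in MG53-TG samples 3 and 4 and below it in samples 1 and 2 (limma adjusted p = 0.461). The part of these markers in the Tac1 difference was not tested.

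Tph1 encodes tryptophan hydroxylase 1, the rate-limiting enzyme of serotonin synthesis outside the nervous system. Tph1 (chromosome 7, 46644641 to 46672537, minus strand) was the lowest of the 9 genes in WT, at 1.45, 1.16, 0.975 and 0.747 FPKM, and was at 3.45, 2.38, 2.11 and 1.65 FPKM in the MG53-TG samples. The highest WT sample lay close under the lowest MG53-TG sample. The log2 fold change was 0.69 with a standard error of 0.183 and a 95% interval from 0.27 to 1.11 (limma, adjusted p = 0.0154), a scale that understates the change of a gene at this level. The mean rose from 1.08 ± 0.298 FPKM to 2.40 ± 0.763 FPKM (SD, n = 4 each), a ratio of 2.21. Without MG53-TG samples 1 and 2 the log2 fold change of Tph1 was 0.47 and no longer passed (limma, adjusted p = 0.0532), and without samples 3 and 4 it was 0.91.

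Gip encodes the incretin of K cells, which are most frequent in the proximal small intestine. Gip (chromosome 11, 96024545 to 96030831, plus strand) was at 32.0, 31.9, 32.6 and 27.6 FPKM in the WT samples and at 36.7, 50.1, 38.4 and 53.3 FPKM in the MG53-TG samples. The groups did not overlap, but MG53-TG samples 1 and 3 were only slightly above the 3 WT samples that lay together. The mean rose from 31.0 ± 2.29 FPKM to 44.6 ± 8.32 FPKM (SD, n = 4 each), with a log2 fold change of 0.50, a standard error of 0.138 and a 95% interval from 0.18 to 0.81 (limma, adjusted p = 0.0187). Without WT sample 4 the call of Gip was lost (limma log2 fold change 0.44, adjusted p = 0.0530).

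For each of these 5 genes the exact two-sided permutation test over 70 relabellings gave p = 0.0286, the smallest value that 4 samples against 4 can give. Of all genes tested, 15.8% had their MG53-TG values wholly above the WT values and 28.7% wholly below. The count of 5 was 4 without MG53-TG samples 1 and 2 and 5 without samples 3 and 4.

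The other peptide hormone genes gave means that moved little against their spread. Cck encodes cholecystokinin, which drives gall bladder contraction and pancreatic enzyme release. Cck (chromosome 9, 121489824 to 121495694, minus strand) was at 69.3, 75.5, 86.1 and 86.3 FPKM in the WT samples and at 48.2, 131, 75.7 and 79.7 FPKM in the MG53-TG samples. MG53-TG samples 1 and 2, which were alike across genes, were the lowest and the highest of all 8 samples for Cck. The means were 79.3 ± 8.38 and 83.6 ± 34.5 FPKM (SD, n = 4 each), and the log2 fold change was -0.01 with a 95% interval from -0.59 to 0.58 (limma, adjusted p = 0.985), turning to 0.18 with median-of-ratios scaling.

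Gcg encodes proglucagon, which L cells process to the glucagon-like peptides. Gcg (chromosome 2, 62474530 to 62483650, minus strand), measured by its end events, was at 40.4, 36.2, 47.2 and 73.3 FPKM in the WT samples and at 19.1, 30.2, 44.5 and 49.0 FPKM in the MG53-TG samples. WT sample 4 was the highest and MG53-TG sample 1 the lowest, and the other samples of the groups overlapped. The means were 49.3 ± 16.6 and 35.7 ± 13.7 FPKM (SD, n = 4 each), with a log2 fold change of -0.49, a standard error of 0.315 and a 95% interval from -1.20 to 0.23 (limma, adjusted p = 0.236). Gcg was the only one of the 9 genes whose log2 fold change lay below the median of all genes tested, 72.0% of which were higher. Without MG53-TG samples 1 and 2 the log2 fold change of Gcg was -0.02, and without samples 3 and 4 it was -0.95 (limma, adjusted p = 0.0611).

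Sct encodes secretin, the hormone that triggers bicarbonate release from the pancreas. Sct (chromosome 7, 141278330 to 141279133, minus strand) was at 3.76, 1.47, 1.89 and 2.06 FPKM in the WT samples and at 3.41, 3.08, 1.69 and 1.22 FPKM in the MG53-TG samples. Sample 1 was the highest in both groups and the ranges overlapped almost fully. The log2 fold change was 0.01 with a 95% interval from -0.61 to 0.64 (limma, adjusted p = 0.975), around means of 2.30 ± 1.01 and 2.35 ± 1.06 FPKM (SD, n = 4 each). Without MG53-TG samples 1 and 2 it was -0.38, and without samples 3 and 4 it was 0.41.

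Ghrl encodes ghrelin, a hunger hormone made mainly in the stomach and also by scattered cells of the small intestine. Ghrl (chromosome 6, 113716119 to 113719880, minus strand) was at 4.21, 5.41, 5.97 and 2.95 FPKM in the WT samples and at 4.16, 4.12, 6.49 and 7.23 FPKM in the MG53-TG samples. MG53-TG samples 3 and 4 were above every WT sample and samples 1 and 2 were within the WT range. The log2 fold change was 0.21 with a 95% interval from -0.31 to 0.73 (limma, adjusted p = 0.491), and without samples 3 and 4 it was -0.10. The intervals of Cck, Gcg, Sct and Ghrl each reach to both sides of 0.

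**Figure D2:**
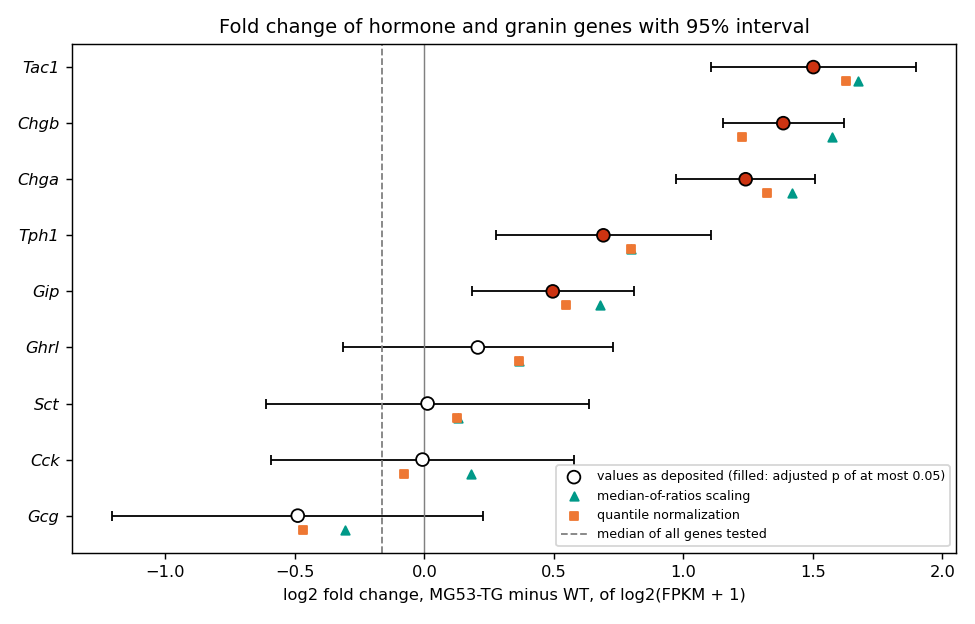
Log2 fold change (x axis, MG53-TG minus WT on the log2(FPKM + 1) scale) of each gene, with circles and 95% intervals for the deposited values (filled where the limma adjusted p was at most 0.05), triangles for median-of-ratios scaling, squares for quantile normalization and a dashed line at the median of all genes tested, -0.16. The intervals of Tac1, Chgb, Chga, Tph1 and Gip lie above 0, and the triangle of Cck lies at 0.18 on the other side of 0 from its circle.

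The scaling of the samples moved the background of all genes and left the calls of these 9 as they were. Median-of-ratios scaling moved the median of all genes by 0.155 and quantile normalization by 0.111 on the log2 scale, so that 50.1% and 44.7% of the calls were in the direction of higher expression, against 35.3% for the values as deposited. With the median-of-ratios method, log2 fold changes were 1.42 for Chga, 1.57 for Chgb, 1.67 for Tac1, 0.80 for Tph1 and 0.68 for Gip. All 5 genes passed the limma threshold under both scalings, and Cck, Gcg, Sct and Ghrl did not pass under either.

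The order of levels was compared per length, as FPKM. In WT the means ran from Chgb through Cck, Gcg, Gip, Chga, Tac1, Ghrl and Sct to Tph1, and only the neighbours Cck and Gcg and the neighbours Ghrl and Sct overlapped between samples. In MG53-TG organoids Chgb was again first and Cck second, but Cck overlapped with Gip, Gip with Chga, Chga with Gcg and Gcg with Tac1, so the order from Cck to Tac1 was not resolved neighbour by neighbour. The FPKM of all 9 genes summed to 269.5 to 322.8 in the WT and to 386 to 547 in the MG53-TG samples. Chga and Chgb made 36.9% to 43.6% of that sum in WT and 55.4% to 65.2% in MG53-TG, and the samples did not overlap. The share of Gcg was 12.9% to 22.7% in WT and 4.93% to 9.02% in MG53-TG, and that of Cck was 25.7% to 30.0% and 12.5% to 23.9%.

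Since Chga is common to most enteroendocrine cells, the other genes were also expressed relative to Chga in the same sample, a comparison made after their values had been seen. The log2 ratio of Chgb to Chga was 2.48 ± 0.163 in WT and 2.58 ± 0.112 in MG53-TG (SD, n = 4 each), and that of Tph1 was -4.05 ± 0.460 and -4.20 ± 0.523. Both ratios overlapped between the groups, with exact two-sided permutation p of 0.314 for Chgb and 0.657 for Tph1. The log2 ratio of Tac1 was -1.10 ± 0.270 in WT and -0.77 ± 0.247 in MG53-TG (exact permutation p = 0.114).

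Relative to Chga, Gip, Cck and Gcg were lower in MG53-TG without overlap between the groups. Chga itself had a log2 fold change of 1.24, so a gene that rose by less has a lower ratio. Of all genes tested, 4.90% had a higher log2 fold change than Chga and the median was -0.16. A fall relative to Chga is therefore not particular to these hormone genes. The share of all genes whose ratio to Chga did not overlap between the groups was not computed. All 8 ratios share Chga, so they are not independent of its rise or of each other. The log2 ratio of Gip was 0.86, 0.71, 1.22 and 0.54 in WT and -0.10, 0.21, -0.12 and 0.23 in MG53-TG, a difference of -0.78. That of Cck was 1.98, 1.95, 2.63 and 2.18 in WT and 0.29, 1.59, 0.85 and 0.82 in MG53-TG, a difference of -1.30. That of Gcg was 1.20, 0.89, 1.76 and 1.95 in WT and -1.05, -0.52, 0.09 and 0.11 in MG53-TG, a difference of -1.79. Each of these 3 had an exact permutation p of 0.0286, and adjusted over the 8 ratios each was at 0.0762 and did not pass after adjustment. The ratios of Sct and Ghrl overlapped between the groups, with differences of -1.28 and -1.04 (exact permutation p = 0.0571 for each, adjusted p = 0.0914).

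**Figure D3:**
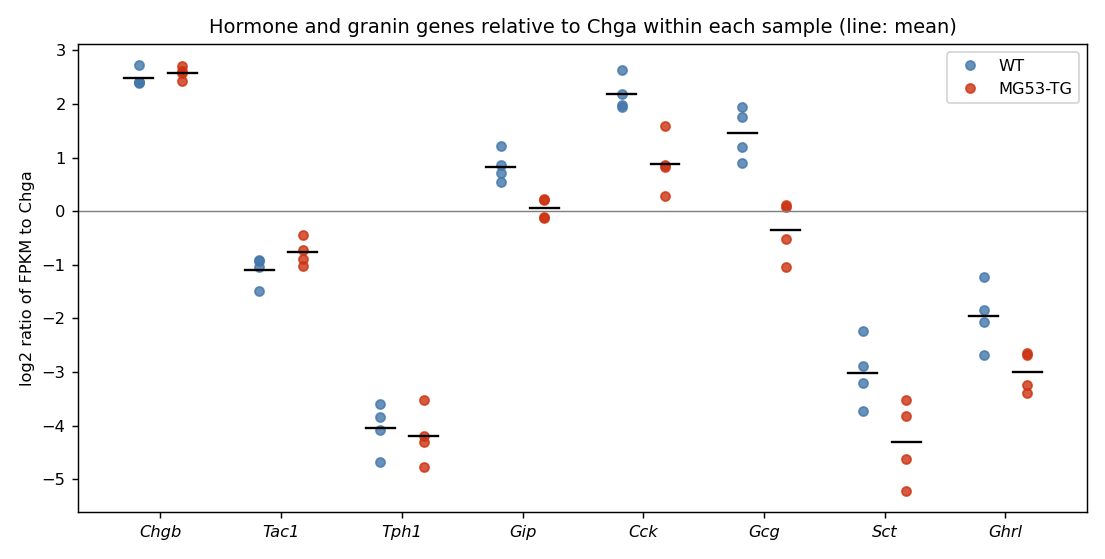
Log2 ratio of FPKM to that of Chga in the same sample (y axis) for the other 8 genes, with a dot per sample in WT (blue) and MG53-TG (red) and a line at each mean. Gip, Cck and Gcg lie lower in all 4 MG53-TG samples, with differences of -0.78, -1.30 and -1.79, whereas Chgb, Tac1 and Tph1 overlap between the groups.

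The members also varied within the MG53-TG group. Sample 1 had the lowest value of its group for 6 of the 9 genes and sample 4 the highest for 5. Chgb, Tac1, Gcg and Ghrl were higher in both of samples 3 and 4 than in samples 1 and 2, and Sct and Tph1 were lower. Chga, Gip and Cck did not split that way.

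Transcript forms of the members were compared as 5 shares over Tac1, Ghrl, Gcg and Cck. Other alternative forms were listed as well, among them forms of Chga, Gip, Sct and Tph1, and were not compared. The exons are shown because the deposited events turn on them. Tac1 carries a 45-base coding exon, the fourth, whose use separates the precursor forms, and a 54-base coding exon that holds the codons of neurokinin A. The coding exon of Ghrl is shown with the 3 bases in capitals that the shorter form leaves out, a CAG that encodes a glutamine of mature ghrelin.
Tac1 45-base exon, chr6:7557216-7557260, plus strand, GRCm38: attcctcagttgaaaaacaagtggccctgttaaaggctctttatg
Tac1 54-base exon, chr6:7559099-7559152, plus strand, GRCm38: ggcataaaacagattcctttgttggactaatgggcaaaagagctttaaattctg
Ghrl exon, chr6:113719110-113719226, minus strand, GRCm38: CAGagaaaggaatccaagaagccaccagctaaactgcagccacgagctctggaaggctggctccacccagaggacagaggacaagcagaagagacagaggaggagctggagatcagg

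Both Tac1 forms rose. The form with the 45-base exon was at 3.88, 3.31, 4.07 and 4.88 FPKM in the WT and 11.2, 15.2, 20.0 and 13.5 FPKM in the MG53-TG samples. The form without it was at 5.32, 3.63, 3.76 and 5.22 FPKM and 8.27, 10.4, 10.7 and 13.9 FPKM. For both forms the groups did not overlap (exact permutation p = 0.0286 for each), with ratios of means of 3.71 and 2.42. The exon was included in 42.2%, 47.7%, 52.0% and 48.3% of the FPKM of both forms in WT and in 57.4%, 59.3%, 65.1% and 49.3% in MG53-TG. MG53-TG sample 4 lay within the WT range, and the difference of 10.2 percentage points did not pass (exact permutation p = 0.0571, adjusted p = 0.0952 over the 5 shares). No event that skips the 54-base exon was used here.

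The shorter Ghrl form made 0.965%, 31.1%, 38.6% and 1.40% of both forms in WT and 40.9%, 47.1%, 54.4% and 39.6% in MG53-TG. WT samples 1 and 4 listed the shorter form at 0.0395 and 0.0397 FPKM, near 0, while WT samples 2 and 3 came close to the MG53-TG samples. The groups did not overlap, with an exact permutation p of 0.0286 and an adjusted p of 0.0952, and the 2 forms together were at 2.84 FPKM in the lowest sample. The upstream start of Ghrl made 50.3%, 10.7%, 6.65% and 31.6% of both main starts in WT and 6.21%, 16.4%, 7.39% and 20.5% in MG53-TG, with overlap (exact permutation p = 0.314). Its mean difference of -12.2 percentage points was -3.70 without WT sample 1.

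Of the Cck transcripts, those with a 163-base exon were few. They made 1.95%, 1.69%, 2.89% and 2.68% in WT and 6.03%, 2.77%, 6.44% and 6.43% in MG53-TG (exact permutation p = 0.0571, adjusted p = 0.0952). MG53-TG sample 2 lay within the WT range and was the sample with the highest total Cck. In FPKM, the form with the exon was at 1.86 ± 0.634 in WT and 4.13 ± 1.05 in MG53-TG, without overlap (exact permutation p = 0.0286). The form without it was at 77.4 ± 7.79 and 79.4 ± 34.4 FPKM, with overlap. A non-coding 43-base exon of Gcg was included in 12.3% ± 3.27 and 13.3% ± 4.47 (SD, n = 4 each) of its transcripts (exact permutation p = 0.714).

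**Figure D4:**
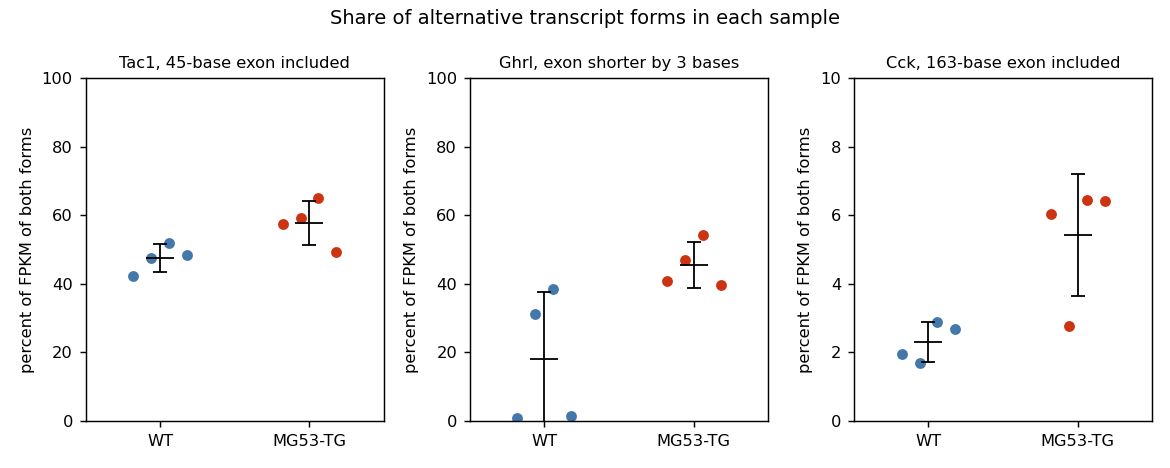
Share of FPKM carried by the named form (y axis, percent of both forms, 0 to 100 for Tac1 and Ghrl and 0 to 10 for Cck) in each WT (blue) and MG53-TG (red) sample, with the mean and its SD in black (the WT bar of Ghrl is cut at 0). MG53-TG sample 4 for Tac1 and sample 2 for Cck lie within the WT range, and WT samples 1 and 4 for Ghrl lie near 0.

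The partners of these genes were counted from lists of their pathway, in the same limma fit. Among these lists, serotonin handling, the pathway that Tph1 opens, had the most genes higher. Of its 11 genes 10 were tested, of which 6 rose and 0 fell (8 and 0 at an unadjusted p of at most 0.05 in limma), with a median log2 fold change of 0.64. Ddc, which decarboxylates the product of Tph1 to serotonin, was at 12.3 ± 2.35 FPKM in WT and 23.5 ± 5.63 FPKM in MG53-TG (log2 fold change 0.87, limma adjusted p = 0.00658). With end events only, Ddc was at a log2 fold change of 0.26 and did not pass (limma, adjusted p = 0.243). Slc18a1, the vesicular transporter that loads serotonin into granules, was at 1.78, 1.10, 1.53 and 1.22 FPKM and 2.46, 3.40, 4.13 and 2.73 FPKM, with no overlap (0.79, limma adjusted p = 0.00477). The other 4 take part in serotonin uptake, breakdown or cofactor supply and are also expressed outside enteroendocrine cells. They were Maoa (2.14) and Maob (1.82), which degrade amines, the transporter Slc6a4 (1.29) and Pcbd1 (0.49), which recycles the cofactor of Tph1.

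Among the enzymes that cut and trim prohormones, 10 of 13 were tested, of which 3 rose and 1 fell (3 and 3 at an unadjusted p of at most 0.05), with a median log2 fold change of -0.21. Pcsk1, the prohormone convertase of most gut endocrine cells, was at 2.93, 3.25, 2.47 and 3.14 FPKM in WT and 5.95, 5.92, 5.73 and 5.76 FPKM in MG53-TG. The groups were far apart and the MG53-TG samples nearly equal (log2 fold change 0.80, limma adjusted p = 0.000542). Cpe, which removes the basic residues that convertases leave, was at 9.60, 9.28, 8.87 and 10.2 FPKM and 13.6, 18.1, 24.4 and 23.4 FPKM (0.96, limma adjusted p = 0.00267). Pcsk5, a convertase of broad expression, was at 8.06 ± 0.593 and 15.4 ± 4.18 FPKM (0.83, limma adjusted p = 0.00646). Cpd fell by 0.51 on the log2 scale (limma adjusted p = 0.0279), a call lost under both scalings (adjusted p = 0.0580 and 0.0517) and without MG53-TG samples 3 and 4 (adjusted p = 0.0842). It passed in 3 of the 8 fits that left out a sample (limma adjusted p from 0.0107 to 0.0724). Mboat4, the acyltransferase that activates ghrelin, was under the expression filter, at 0.326 ± 0.0980 FPKM in WT and listed in 0 of the 4 MG53-TG samples.

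Of 8 other granins and granule proteins 6 were tested, of which 1 rose and 1 fell, with a median log2 fold change of 0.06. Resp18, a granule protein of endocrine cells, rose from 0.452 ± 0.223 to 2.29 ± 0.849 FPKM (log2 fold change 1.16, limma adjusted p = 0.00222). The WT mean of Resp18 was under the filter of 0.5 FPKM, so it entered the test only through its MG53-TG values. Scgn, the calcium sensor secretagogin, fell from 2.43 ± 0.107 to 1.51 ± 0.400 FPKM (-0.46, limma adjusted p = 0.0241), a call lost under both scalings (adjusted p = 0.119 and 0.123). The call was also lost without MG53-TG samples 1 and 2 (limma adjusted p = 0.0670). Scgn passed in 5 of the 8 fits that left out a sample (limma adjusted p from 0.0120 to 0.0550). Scg2, the granin secretogranin 2, was at 3.03 ± 0.590 and 4.47 ± 1.23 FPKM and did not pass (0.42, limma adjusted p = 0.110). Scg5, secretogranin 5, was at 1.47 ± 0.267 and 0.957 ± 0.328 FPKM and did not pass either (-0.34, limma adjusted p = 0.102). Scg3, secretogranin 3, was under the filter, at 0.704, 0.871, 0.845 and 0.804 FPKM in WT and 0, 0, 0 and 0.578 FPKM in MG53-TG.

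Of 15 other gut peptide genes, 4 were tested, 5 were under the filter and 6 had no value. In limma 0 rose, also at an unadjusted p of at most 0.05, and Adm, the vasoactive peptide adrenomedullin, fell from 13.6 ± 3.74 to 0.762 ± 0.116 FPKM (log2 fold change -3.01, limma adjusted p = 7.47e-06). Pyy, the second peptide of L cells, was at 1.81, 0.503, 0.941 and 0.382 FPKM in WT and at 0.346, 0, 0.424 and 0 FPKM in MG53-TG, which did not pass (log2 fold change -0.64, limma adjusted p = 0.0607). The count of lower genes in this list was 2 with the replicate number as a block and without WT sample 4. Nts, the neurotensin gene, was at 1.18 ± 0.462 and 1.09 ± 0.666 FPKM.

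The exocytosis genes had 13 of 25 tested, of which 2 rose and 5 fell (3 and 5 at an unadjusted p of at most 0.05). Rab3a, the GTPase of secretory granules, rose by 0.77 on the log2 scale (limma adjusted p = 0.00108), and Rph3al (-1.04), Ica1 (-0.97) and Cadps2 (-0.79) were the largest decreases past the threshold. With end events only 1 rose and 2 fell, without MG53-TG samples 3 and 4 the counts were also 1 and 2, and with no filter 4 rose and 6 fell. The call of Cadps2 was lost with a pseudocount of 0.1 (limma adjusted p = 0.0532). The call of Ica1 was lost without MG53-TG samples 3 and 4 (limma adjusted p = 0.0789). The median log2 fold change of the list was -0.24, beside -0.16 over all genes tested.

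The transcription factors that specify enteroendocrine cells had 9 of 22 tested, of which 0 rose and 5 fell, the same counts as at an unadjusted p of at most 0.05 in limma, with a median log2 fold change of -0.58. Foxa2 (-1.34), Foxa1 (-1.06), Tox3 (-0.90) and Rcor2 (-0.58) were the largest decreases among those past the threshold. The MG53-TG mean of Foxa2, 0.292 FPKM, was under the filter of 0.5 FPKM, so it entered the test only through its WT values. Foxa1 had no value in WT sample 1 and MG53-TG samples 3 and 4, which were treated as missing. Its call was lost with the absent values set to 0 (limma adjusted p = 0.223) and with the replicate number as a block (limma adjusted p = 0.172), under which 2 genes of the list passed as lower. The count was 3 under either scaling, under which Rcor2 no longer passed, and Rcor2 passed in 2 of the 8 fits that left out a sample (limma adjusted p from 0.0156 to 0.0990). Neurog3, the factor that commits progenitors to the endocrine fate, was at 5.25, 4.25, 2.51 and 3.22 FPKM in WT and 2.27, 3.22, 3.14 and 3.69 FPKM in MG53-TG, with overlapping groups (log2 fold change -0.22, limma adjusted p = 0.403).

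Of 18 receptors for these hormones 0 were tested, 6 being under the filter and 12 without a value. Of 21 sensors 5 were tested, of which 2 rose and 2 fell. Slc5a1 (2.69) and Slc15a1 (1.67), the sodium-glucose and peptide transporters, are abundant in absorptive enterocytes, and Ffar4 (-1.09), a receptor for long-chain fatty acids, and the channel Trpc2 (-0.81) fell. The WT mean of Slc15a1, 0.355 FPKM, was under the filter of 0.5 FPKM, so it entered the test only through its MG53-TG values. Trpc2 passed in 3 of the 8 fits that left out a sample (limma adjusted p from 0.00812 to 0.0785). Of 8 peptidases that degrade gut hormones all 8 were tested, of which 4 rose and 0 fell (4 and 1 at an unadjusted p of at most 0.05), Enpep (4.32), Mme (3.85), Ace (3.11) and Anpep (2.0), all brush border enzymes. Mme had no value in WT sample 4, which was treated as missing.

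Of the 42 genes of these lists under the expression filter, 5 lay wholly above WT in the MG53-TG samples, 5 wholly below, and the groups overlapped for 32. Over all 3221 genes with a value under the filter, 6.12% lay wholly above and 6.86% wholly below. The 5 above were Snap25, the enterochromaffin factor Lmx1a (mean 0.116 FPKM in WT and 0.784 FPKM in MG53-TG), the irritant channel Trpa1 (listed in 0 of the 4 WT samples, with a mean of 0.967 FPKM in MG53-TG), and the channel subunits Cacna1a and Scn3a. The 5 below were Scg3, Mboat4, Qpct, Sytl4 and Runx1t1, the last 4 listed in 0 of the 4 MG53-TG samples. Cacna1a, Scn3a and Runx1t1 rested on fewer than 8 samples, the absent ones being treated as missing.

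**Figure D5:**
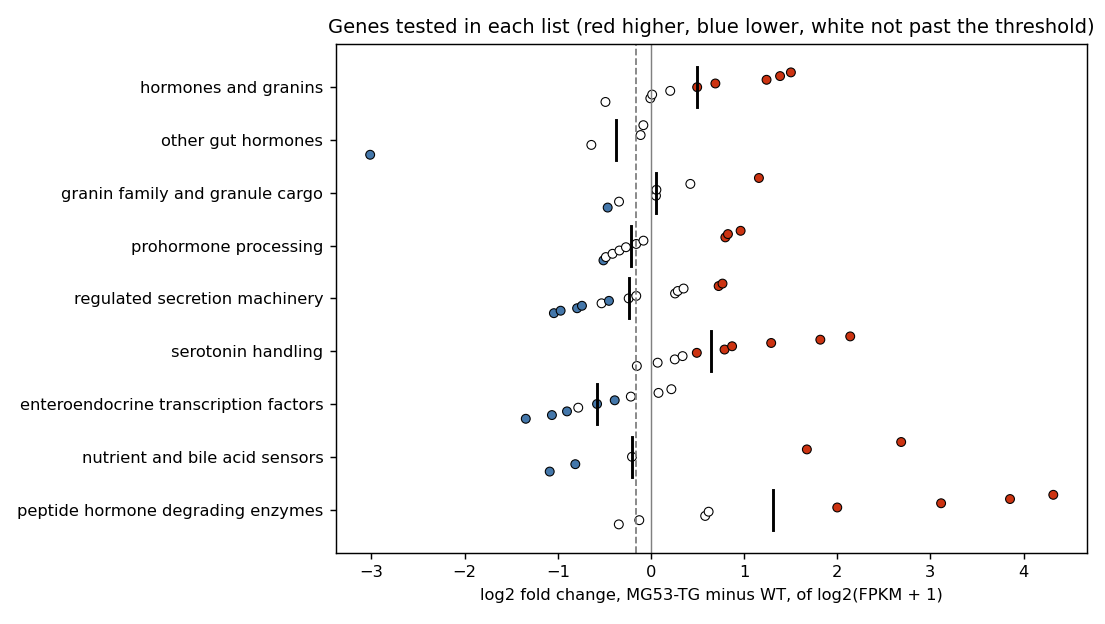
Log2 fold change (x axis, MG53-TG minus WT on the log2(FPKM + 1) scale) of each gene tested in the hormone and granin set and 8 pathway lists, red for higher, blue for lower and white for genes not past a limma adjusted p of 0.05, with a bar at each list's median and a dashed line at the median of all genes tested. The medians were 0.50 for hormones and granins, 0.64 for serotonin handling, -0.58 for transcription factors and 1.31 for degrading enzymes, beside -0.16 for all genes.

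Markers of other epithelial cells moved in the same samples. The summed FPKM of 10 enterocyte markers was 921 to 1074 in WT and 11236 to 12421 in MG53-TG, and all 10 rose. The sum of 8 stem cell markers was 534 to 707 and 68.4 to 318, with 6 lower. That of 8 proliferation genes was 491 to 527 and 133 to 365, with 7 lower. Among the other secretory cells, goblet markers summed to 508 to 600 and 151 to 379, with 5 of 7 tested lower, and Paneth markers to 1224 to 1640 and 262 to 460, with 6 of 6 tested lower. Of 7 markers of the proximal small intestine tested, 5 rose and 0 fell, and of 6 of the distal small intestine 2 rose and 2 fell. The part of these shifts in the values of the hormone and granin genes was not tested. Of 8 tuft cell markers 0 passed the expression filter. Of cells outside the epithelium, the immune marker Ptprc was at or near 0 in all 8 samples, and the immune list summed to 7.32 to 10.7 and 2.23 to 2.61, with 1 of 2 tested lower. That gene was Cd68, at 6.14 ± 2.37 FPKM in WT and 0.935 ± 0.340 FPKM in MG53-TG (log2 fold change -1.84, limma adjusted p = 0.000568). Mesenchyme markers summed to 1.80 to 3.24 and 1.31 to 5.58, with 2 of 3 tested higher. These were Col1a2 and Col3a1, at 0 FPKM in all 4 WT samples, so they entered the test only through their MG53-TG values. MG53-TG sample 1 had no value for either gene and was treated as missing. Ins1 and Ins2 of the pancreatic islet had no value.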

How the data were processed

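RNA of 4 WT and 4 MG53-TG organoid samples was extracted with TRIzol. The authors trimmed the reads with Cutadapt 1.9.1 and mapped them with HISAT2 2.0.1, as named in the submitters' processing notes, which give mm10 as the build and also list HTSeq 0.6.1 and DESeq2. The tool that made the event tables was not given in the sources used here. The deposited values are FPKM per transcript event and sample, with 123166 events in any sample. The smallest FPKM was 1e-06, too small for a single read, so the values are estimates, the depth is unknown and no count test was run.

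Start and end events (49773) were compared with exon boundaries of the GENCODE M21 annotation of GRCm38. Of these, 86.6% matched a gene, 4.21% were moved to another gene than the one named, 7.10% were kept by their identifier and 2.13% had no gene. None of the events of the 9 genes was moved, and 2 of 4 Tac1 starts did not match a boundary. A gene with no entry in a sample was taken as missing where the median of the rest of the group reached 0.5 FPKM, and as 0 elsewhere. Genes whose mean reached 0.5 FPKM were compared with limma 3.58.1 (lmFit, eBayes with trend, R 4.3.3) on log2(FPKM + 1) with Benjamini-Hochberg adjustment over all 11027 genes and a threshold of 0.05, from which all 9 genes passed the filter with both group means. Some genes of the companion and marker lists passed the filter through a single group, among them Resp18, Slc15a1, Foxa2, S100b, Col1a2 and Col3a1. Single values and shares were compared with two-sided exact permutation tests over all relabellings of the samples (Python 3.11.15, numpy 2.4.6). Simulated data with 10645 genes had 67.0% of 100 genes recovered at a log2 change of 1 and 91.0% of 100 at a log2 change of 2, with 13 unchanged genes called. The simulation used only genes with complete values and changed a far smaller share than the 44.5% of genes that passed here. Its rates hold for that setting and do not give the recovery in these data. The genes named were the 10 members, up to 4 genes past the threshold with the largest absolute log2 fold change of each companion list, and Trim72, beside genes given for their role, outside that rule (Neurog3, Pyy, Nts, Scg2, Scg3, Scg5, Mboat4, Slc18a1 and Pcbd1), the markers named, and all genes of these lists under the filter whose groups did not overlap. The members and lists were chosen with earlier results of these data known. Promoters came from RefSeq (GRCm38.p6), in which all 10 genes matched by symbol. The alternatives were a pseudocount of 0.1, no filter, a filter at 2 FPKM, both scalings, the replicate number as a block, start or end events only, absent entries as 0, the deposited identifier alone, sample weights, leaving out each sample, and, chosen after seeing the data, leaving out either MG53-TG pair. Of the marker lists, 1 gene is not reported here.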

Additional observations from a re-analysis of the deposited data

Results flagged for a closer look

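In groups of 4 samples, 4 of 79 groups examined had a sample far from the other 3 by Dixon's test at the 95% level, where chance gives 3.95. Gip was at 27.6 FPKM in WT sample 4, below the other 3 WT samples at 31.9 to 32.6 FPKM. Slc6a4, the serotonin transporter, was at 2.49 FPKM in WT sample 4, below the other 3 at 4.94 to 5.43 FPKM. Slc15a1, the peptide transporter, was at 1.12 FPKM in WT sample 4, above the other 3 at 0.0468 to 0.130 FPKM. The Cck transcripts with the 163-base exon made 2.77% in MG53-TG sample 2, below the other 3 at 6.03% to 6.44%.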

How the results depend on the processing

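Of the 9 hormone and granin genes, 4 to 5 passed the threshold when each sample was left out in turn, and 3 to 5 under the other alternatives. With end events only the count was 3, since Tac1 had no end events and Tph1 was under the filter, and with a mean of at least 2 FPKM it was 4, since Tph1 was not tested. Over all genes, 3910 to 5192 passed when each sample was left out and 3641 to 5950 under the other alternatives, from 4902. Chga, Chgb and Tac1 passed under each alternative that tested them. The sign turned for genes that never passed. Cck was at 0.18 with median-of-ratios scaling, at 0.0093 without MG53-TG samples 3 and 4, and from -0.25 to 0.22 with each sample left out. Sct was at -0.38 without MG53-TG samples 1 and 2, and from -0.14 to 0.20 with each sample left out. Ghrl was at -0.10 without MG53-TG samples 3 and 4. The cause was not tested. Over all alternatives, the count of lower genes was 0 to 4 for prohormone processing, 0 to 2 for granule proteins, 1 to 2 for sensors, 2 to 5 for transcription factors and 0 to 1 for degrading enzymes, and that of higher genes was 4 to 8 for serotonin handling, 1 to 5 for sensors, 0 to 2 for granule proteins and 0 to 1 for transcription factors.

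The replicate numbers did not pair the samples, since the correlation of deviations between samples of the same number was 0.0614, 0.0166, 0.0721 and -0.0617. With the replicate number as a block, 4448 genes passed, of which 4251 also passed without it, and the same 5 members passed, Gip with an adjusted p of 0.0459 in limma. The FPKM values give no depth, so no limit from counting error could be set for the low genes Tph1, Sct and Ghrl.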
